A study of Mus musculus with 16 samples.

Results

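The Kruppel-like factors Klf2, Klf3, Klf4, Klf6, Klf9 and Klf10 were followed in cultures of mouse endothelium with and without VE-cadherin (VEC, the product of Cdh5), the main adhesion molecule between endothelial cells, at low and at high cell density. Every probe set annotated to 1 of these 6 genes and to no other gene was taken, which gave 13 of the 24833 probe sets on the chips, with controls left out. Of the 13, 12 passed the filter on dim probe sets and were tested. The 4 conditions were VEC-positive confluent, VEC-null confluent, VEC-positive sparse and VEC-null sparse cells. All 4 carry the label of endothelial cells grown from embryonic stem cells with both copies of the VE-cadherin gene disrupted, and the sources used here do not say how VEC was present in the VEC-positive line. Every culture was held for 36 h in MCDB 131 medium with albumin and without serum before lysis. Each condition was 1 cRNA sample, made from 15 µg of total RNA and hybridised to 2 copies of each of 2 chip types, MG_U74Av2 (chip A) and MG_U74Bv2 (chip B), 16 arrays in all. With 1 cRNA sample per condition, the p values below measure only the spread between array copies, which is technical, and not the spread between cultures. The exception is an additive fit over the 4 cRNA samples, whose p values do not measure the spread between cultures either.

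Kruppel-like factors are transcription factors that bind GC-rich and CACCC sequences through zinc fingers at the end of the protein, and they raise or lower their targets depending on the cofactors they recruit. In endothelium Klf2 and Klf4 are induced by laminar flow through the MEKK3, MEK5, ERK5 and MEF2 cascade, and are known for raising vasoprotective genes and lowering inflammatory ones. Klf6 is an early response gene of injured vessels, Klf9 a glucocorticoid-induced factor, Klf10 a TGF-beta-inducible early gene, and Klf3 a repressor that works with CtBP.

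The promoters of the 3 members with a representative probe set that passed as higher in VEC-positive cells are shown first, each as 300 bases of mouse build GRCm38.p6 from RefSeq, with 250 bases before the annotated start and 50 from it. Promoter sequences were matched for 5 of the 6 members. Capitals mark CACCC (or its complement GGGTG), the MEF2 motif, the FoxO motif GTAAACA and the E-box CACGTG, searched on both strands.
Klf2 (chr8:72318812-72319111, plus strand): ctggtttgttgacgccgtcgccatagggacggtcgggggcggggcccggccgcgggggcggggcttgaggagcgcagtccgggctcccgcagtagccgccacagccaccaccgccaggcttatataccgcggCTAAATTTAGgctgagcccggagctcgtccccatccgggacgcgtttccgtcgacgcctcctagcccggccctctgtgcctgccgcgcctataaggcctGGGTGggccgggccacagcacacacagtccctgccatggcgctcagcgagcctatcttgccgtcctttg
Klf4 (chr4:55532426-55532725, minus strand): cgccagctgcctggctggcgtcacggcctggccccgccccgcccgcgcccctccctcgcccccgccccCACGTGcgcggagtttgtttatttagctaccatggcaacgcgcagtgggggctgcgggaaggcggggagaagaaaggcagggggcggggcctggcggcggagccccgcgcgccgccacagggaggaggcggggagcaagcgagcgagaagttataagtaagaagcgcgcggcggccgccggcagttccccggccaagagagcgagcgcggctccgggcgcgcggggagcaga
Klf9 (chr19:23140976-23141275, plus strand): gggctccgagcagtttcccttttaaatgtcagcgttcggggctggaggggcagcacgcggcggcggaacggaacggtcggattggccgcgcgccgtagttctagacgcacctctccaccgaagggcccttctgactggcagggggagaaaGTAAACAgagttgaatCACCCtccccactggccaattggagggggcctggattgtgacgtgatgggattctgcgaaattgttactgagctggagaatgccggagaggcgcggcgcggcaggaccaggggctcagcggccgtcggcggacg

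The Klf2 window held 1 match to the MEF2 motif, which began at position -118 from the start, and 1 CACCC match at position -19. It also held 2 copies of the GC box GGGCGG, at positions -214 and -195, which are not in capitals above. The MEF2 motif was found in 3.19% of all 32851 promoter windows of this length, and CACCC in 57.5%. The Klf4 window held no CACCC or MEF2 match, 1 E-box at position -182 (7.15% of windows hold one) and 4 copies of the GC box GGGCGG (35.7% of windows). The Klf9 window held GTAAACA at position -100, a motif found in 3.65% of windows, CACCC at position -84, and 3 CCAAT boxes, of which 2 overlap each other (37.4% of windows hold one). Of the other members, the Klf3 window held 5 CACCC matches and 6 GC boxes, and that of Klf6 held 4 CCAAT boxes, 1 GC box and 1 E-box. A match of letters is a description of the window and shows no binding.

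Values are MAS5 signals, a linear intensity that the authors scaled to a target of 500 on every array, given for both array copies of a condition. The 2 copies of a condition correlated with r of 0.984 to 0.989 over the probe sets of chip A and 0.951 to 0.974 on chip B. Cdh5 averaged 2566.5 ± 57.6 in VEC-positive confluent and 2608 ± 140.4 in VEC-null confluent cells, and 1399 ± 92.4 in VEC-positive sparse and 1268.5 ± 18.5 in VEC-null sparse cells (SD, n = 2 copies each). The Cdh5 probe set therefore did not separate the lines, and since its place relative to the disrupted part of the gene is unknown here, it checks no label. Of 16 listed endothelial markers, 14 were on the chips and all 14 passed the level filter. Their summed signal was 52895 to 53874 in VEC-positive confluent, 61416 to 62014 in VEC-null confluent, 26388 to 29035 in VEC-positive sparse and 16999 to 17237 in VEC-null sparse cells. Of 8 embryonic stem cell markers, 7, with Pou5f1, Nanog and Sox2 among them, lay below the level filter, and Fgf4 was at 203.5 to 344 without passing in any comparison. Of 8 blood cell markers, 7 lay below it, with the leukocyte marker Ptprc among them. The eighth, Cd68, a lysosomal protein of macrophages, was at 746.5 and 1073.5 in VEC-null confluent cells and at 252 to 364 on the other 6 arrays, and passed at -1.5 for VEC in confluent cells and at 1.55 for density in VEC-null cells. In such bulk samples, fewer cells of a type and less RNA per cell cannot be told apart.

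In outline, Klf4 was higher in VEC-positive cells at both densities, Klf9 was higher in VEC-positive cells when confluent, and Klf2 was higher in VEC-positive cells when sparse. Klf6 was lower in confluent than in sparse VEC-positive cells, Klf2 and Klf10 were higher in confluent than in sparse VEC-null cells, and Klf3 depended on the probe set. A probe set passed at a Benjamini-Hochberg adjusted p below 0.05 in limma and a change of at least 1 in log2(signal + 50). Of the 12 tested probe sets, 4 passed as higher and 2 as lower in VEC-positive confluent against VEC-null confluent cells, where 7.91% of all 14301 tested probe sets passed (4.29% higher and 3.62% lower). The 4 were Klf4 99622_at and the 3 tested probe sets of Klf9, so they are not 4 separate genes. One of the 4, Klf9 93527_at, was tested only because VEC-positive confluent cells took it past the level filter, and without it 3 of 11 were higher and 2 lower. The members were chosen with earlier results of these data known, so no excess over the background can be read from these counts or those that follow. In sparse cells 2 of the 12 passed, both higher in VEC-positive cells, where 9.71% of all tested passed (5.43% higher and 4.27% lower). Between confluent and sparse cells, 2 of 12 passed in the VEC-positive line, both lower when confluent, where 15.3% of all tested passed (8.13% higher and 7.21% lower). In the VEC-null line 4 of 12 passed, all 4 higher when confluent, where 16.5% of all tested passed (9.08% higher and 7.4% lower). For the interaction, which is the density response in VEC-positive cells minus that in VEC-null cells, 4 of 12 passed, 1 higher and 3 lower, where 12.2% of all tested passed (5.89% higher and 6.31% lower). As shares of the 12, these are 16.7% in sparse cells, beside 9.71% of all tested, and 16.7% for density in VEC-positive cells, beside 15.3%. For density in VEC-null cells the share is 33.3%, beside 16.5%, and for the interaction 33.3%, beside 12.2%. Probe sets of the same gene are counted separately in these shares.

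**Figure D1:**
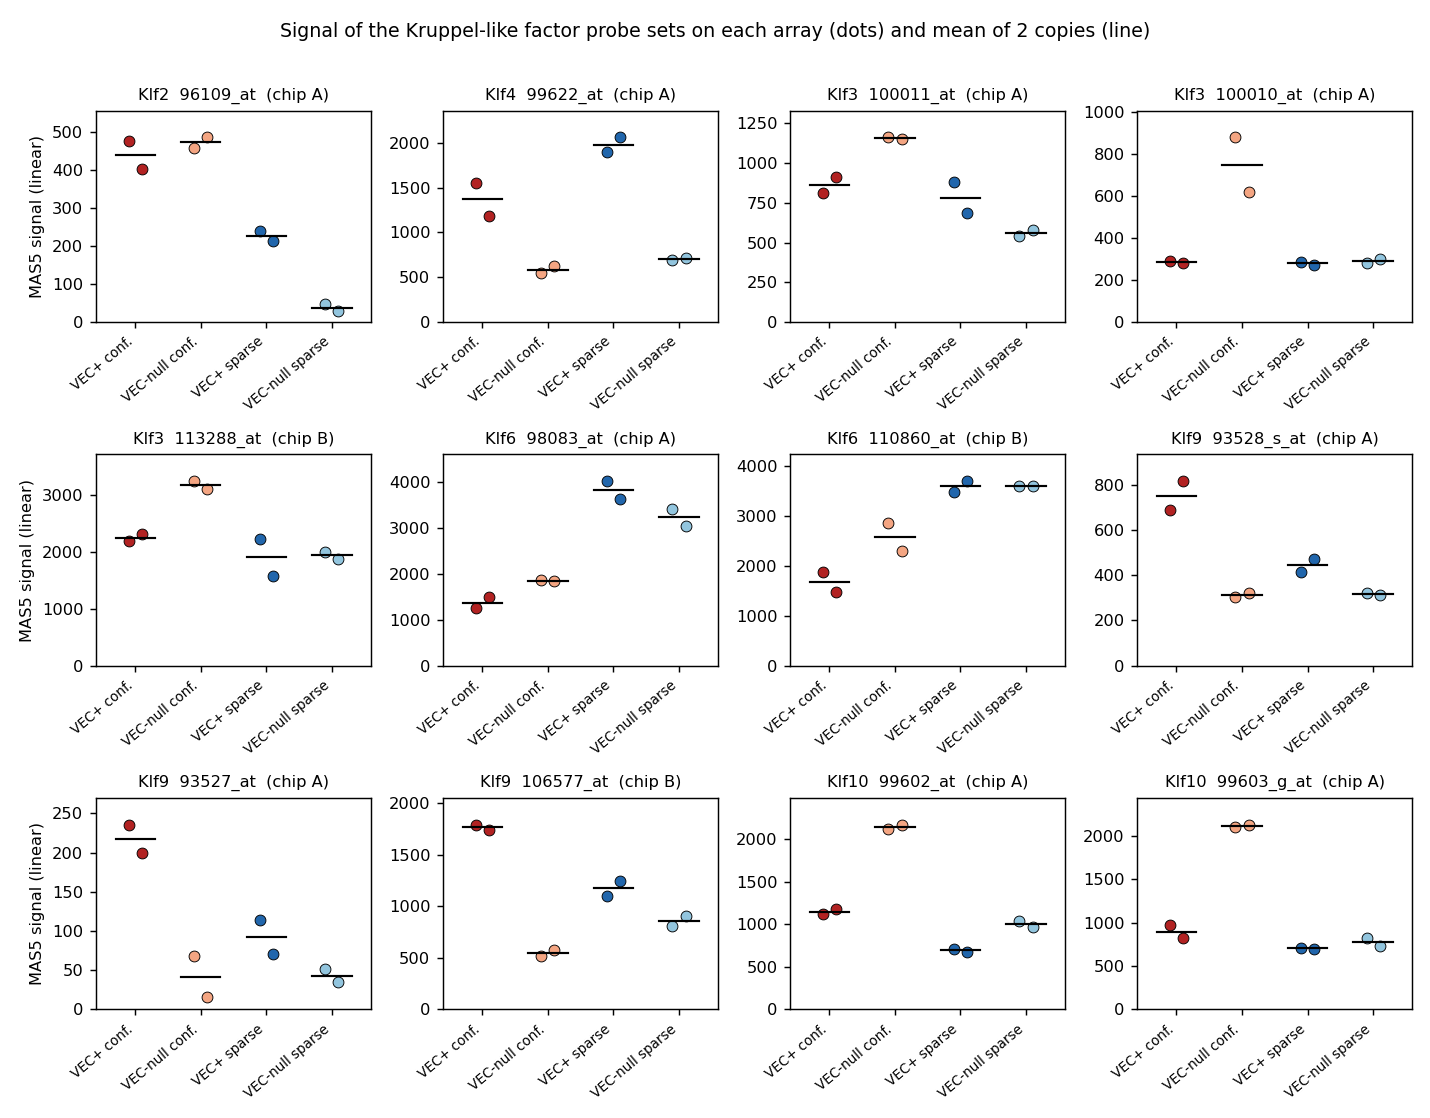
MAS5 signal (linear axis from 0) of the 12 tested probe sets in VEC-positive confluent, VEC-null confluent, VEC-positive sparse and VEC-null sparse cells, with a dot per array copy and a line at the mean of both copies. Klf4 stands higher in VEC-positive cells at both densities, the 3 Klf9 probe sets peak in VEC-positive confluent cells, and Klf2 is lowest in VEC-null sparse cells at 47.3 and 28.6.

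Klf2, the flow-induced factor of quiescent endothelium, was measured by 96109_at on chip A and lies on chromosome 8 (72319062 to 72321654, GRCm38.p6). Its signals were 477 and 404 in VEC-positive confluent cells and 459.7 and 488 in VEC-null confluent cells. They were 241 and 213 in VEC-positive sparse cells and 47.3 and 28.6 in VEC-null sparse cells. The confluent arrays of the 2 lines overlapped and all lay above the sparse arrays, and the VEC-null sparse arrays were the lowest by a wide margin, below the filter level of 160.25. In sparse cells Klf2 was higher in VEC-positive than in VEC-null cells by 1.66 (SE 0.16) on the log2 scale, 3.16-fold, with a limma adjusted p of 5.0e-05. Because the VEC-null sparse signal is dim, this value depended on the offset, with 0.84 at an offset of 200, which no longer passed, and 2.33 at an offset of 10. In confluent cells the difference was -0.10 (SE 0.16, limma adjusted p 0.68).

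In VEC-null cells Klf2 was higher when confluent by 2.58 (SE 0.16), 5.99-fold, with a limma adjusted p of 1.1e-06. In VEC-positive cells the confluent arrays were also above the sparse ones, but the change of 0.82 stayed below the threshold of 1. The interaction was -1.76 (SE 0.23, limma adjusted p 0.00054), so the density response was smaller in VEC-positive than in VEC-null cells. From the highest level down, VEC-null confluent and VEC-positive confluent cells did not differ beyond the spread of copies, VEC-positive sparse cells came next and VEC-null sparse cells were last. The summed endothelial markers were likewise lowest in VEC-null sparse cells, and their part in the Klf2 result was not tested. Genes of chromosome 8 had a median VEC change of 0.29 in confluent and 0.22 in sparse cells (509 genes), and less that median the sparse difference of Klf2 was 1.44.

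Klf4, the second flow-responsive factor and a factor of epithelial and stem cell differentiation, was measured by 99622_at on chip A (chromosome 4, 55527137 to 55532475). Its signals were 1555 and 1185 in VEC-positive confluent cells, against 542 and 621 in VEC-null confluent cells. They were 1899 and 2065 in VEC-positive sparse cells, against 690.2 and 713 in VEC-null sparse cells. All 4 VEC-positive arrays lay above all 4 VEC-null arrays. The VEC difference was 1.16 (SE 0.13) in confluent cells, 2.23-fold, with a limma adjusted p of 0.00018, and 1.43 (SE 0.13) in sparse cells, 2.70-fold, with a limma adjusted p of 3.9e-05. Leaving out the first VEC-positive confluent copy gave 0.97 in confluent cells, just under the threshold. Density moved Klf4 less: confluent minus sparse was -0.53 in VEC-positive cells and -0.25 in VEC-null cells, and neither passed. The 2 VEC differences were not distinguishable from each other, with an interaction of -0.28 (SE 0.19, limma adjusted p 0.31).

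Klf4 was highest in VEC-positive sparse cells. The summed signal of 10 smooth muscle and fibroblast markers was 9637 to 11319 there, 2578 to 2723 in VEC-positive confluent, 1724 to 1848 in VEC-null confluent and 2116 to 2168 in VEC-null sparse cells. S100a4, a calcium-binding protein of motile and mesenchymal cells, made up most of the sum, with 8708 and 10245 in VEC-positive sparse cells, while Cnn1, Myh11, Pdgfra, Col1a1 and Thy1 lay below the level filter by their representative probe sets. Other markers of the list were highest elsewhere, with Acta2, smooth muscle actin, at 357.7 and 385 in VEC-null sparse cells, Pdgfrb, a receptor of pericytes, at 311 and 344 in VEC-null confluent cells, and Dcn, a matrix proteoglycan, at 571 and 602 in VEC-positive confluent cells. Krt19, an epithelial keratin, was at 862 and 948 in VEC-positive sparse cells, and between 3.3 and 7.0 on the other 6 arrays of the chip. Of the other 6 epithelial markers, 5 lay below the level filter, and Cdh1 passed in no comparison. Between VEC-positive confluent and VEC-null confluent cells, S100a4 and Dcn were higher by 1.18 each, and Acta2 and Pdgfrb were lower, at -1.64 and -2.65. Acta2 exceeded the level filter only in VEC-null sparse cells, and Pdgfrb only in VEC-null confluent cells. The Pdgfrb call therefore comes from a gene tested through the condition in which it was high. The part of these markers in the Klf4 result was not tested. The other Klf4 probe set, 161185_i_at, was dim on all 8 arrays of its chip, at 0.8 to 3.2, and was not tested.

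Klf9, a glucocorticoid-induced factor that binds GC boxes, lies on chromosome 19 (23141226 to 23168129) and was measured by 3 probe sets. By 93528_s_at on chip A the signals were 688 and 818.5 in VEC-positive confluent cells, against 302 and 319.5 in VEC-null confluent cells. They were 416 and 473 in VEC-positive sparse cells, against 321 and 313 in VEC-null sparse cells. VEC-positive confluent arrays were the highest and VEC-positive sparse arrays came next, while VEC-null confluent and VEC-null sparse arrays overlapped. In confluent cells the difference between VEC-positive and VEC-null was 1.15 (SE 0.13), 2.22-fold, with a limma adjusted p of 0.00016. In sparse cells it was 0.43 and did not pass.

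The probe set on chip B, 106577_at, gave 1792 and 1739.9 in VEC-positive confluent cells, against 515 and 574 in VEC-null confluent cells. It gave 1095.5 and 1248 in VEC-positive sparse cells, against 811 and 906 in VEC-null sparse cells. Here too the VEC-positive confluent arrays were highest, but the VEC-null confluent arrays were the lowest of all and did not overlap the VEC-null sparse ones. The confluent VEC difference was 1.61 (SE 0.13), 3.06-fold, with a limma adjusted p of 1.8e-05. The density response of VEC-positive cells exceeded that of VEC-null cells by 1.19 (SE 0.18, limma adjusted p 0.0011), which passed for this probe set, while 93528_s_at gave 0.72 and did not pass. The 3′ to 5′ signal ratios of the Gapdh controls on chip B were 1.23 and 1.14 on the VEC-positive confluent arrays and 0.910 to 1.00 on the others. On chip A the actin ratios were 1.33 and 1.26 on the VEC-positive confluent arrays and 1.11 to 1.25 on the others, while the Gapdh ratios of all 8 arrays lay between 0.903 and 1.01. The part of these ratios in the Klf9 results was not tested.

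The third Klf9 probe set, 93527_at on chip A, was dim, and only VEC-positive confluent cells, at 236 and 199, took it past the level filter. It read 68.2 and 15.5 in VEC-null confluent, 114 and 70.5 in VEC-positive sparse, and 51.3 and 34.6 in VEC-null sparse cells. Its confluent VEC difference was 1.60 (SE 0.29, limma adjusted p 0.0023), which cannot count as separate support since this group chose it for testing.

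Klf6, an early response gene of wounded endothelium, lies on chromosome 13 (5861489 to 5870393). By 98083_at on chip A the signals were 1252 and 1491 in VEC-positive confluent cells, against 4026.5 and 3622 in VEC-positive sparse cells. They were 1855 and 1844 in VEC-null confluent cells, against 3420.1 and 3037 in VEC-null sparse cells. All sparse arrays lay above all confluent arrays, and no 2 conditions overlapped. In VEC-positive cells Klf6 was lower when confluent, at -1.45 (SE 0.11), 2.73-fold, with a limma adjusted p of 3.8e-06. The change in VEC-null cells was -0.79, short of the threshold, and the difference between the lines, -0.66 (SE 0.15), was also short of it. The VEC differences of -0.42 in confluent and 0.24 in sparse cells did not pass either.

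On chip B, 110860_at gave 1878 and 1478 in VEC-positive confluent cells, against 3483 and 3711.5 in VEC-positive sparse cells. It gave 2861 and 2305.5 in VEC-null confluent cells, against 3597 and 3600.4 in VEC-null sparse cells. The order was the same except that the sparse arrays of the 2 lines overlapped. Klf6 was lower in confluent VEC-positive cells, at -1.09 (SE 0.13), with a limma adjusted p of 1.0e-04, and without the second VEC-positive confluent copy the value was -0.92 and did not pass. In VEC-null cells the change was -0.48.

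Klf10, the TGF-beta-inducible early gene, lies on chromosome 15 (38291464 to 38300711) and was read by a pair of chip A probe sets. By 99602_at it gave 1115 and 1178 in VEC-positive confluent cells, against 2113 and 2169.9 in VEC-null confluent cells. It gave 708 and 675 in VEC-positive sparse cells, against 1032 and 962 in VEC-null sparse cells. VEC-null confluent arrays were far above the rest, VEC-positive confluent came next, then VEC-null sparse and VEC-positive sparse, with no overlap. In VEC-null cells Klf10 was higher when confluent by 1.07 (SE 0.09), 2.09-fold, with a limma adjusted p of 1.1e-05. The confluent VEC difference of -0.87 (limma adjusted p 0.00011) fell short of the threshold, as did the change of 0.69 with density in VEC-positive cells.

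By 99603_g_at the signals were 975 and 819 in VEC-positive confluent cells, against 2107 and 2134.5 in VEC-null confluent cells. They were 713 and 692.5 in VEC-positive sparse cells, against 829 and 733 in VEC-null sparse cells. The VEC-null confluent arrays again stood apart, and the VEC-positive confluent and VEC-null sparse arrays overlapped. This probe set passed as lower in VEC-positive confluent cells, at -1.20 (SE 0.11, limma adjusted p 5.0e-05), and as higher with confluence in VEC-null cells, by 1.39 (SE 0.11, limma adjusted p 6.3e-06). Its interaction was -1.06 (SE 0.16, limma adjusted p 0.0011), whereas that of 99602_at was -0.38 and did not pass. The interaction of 99603_g_at fell short of the threshold without the second VEC-null sparse copy (-0.978), without the second VEC-positive confluent copy (-0.942) and at an offset of 200 (-0.966). Cd68 was also highest in VEC-null confluent cells, and its part in the Klf10 and Klf3 results was not tested. Genes of chromosome 15 had median VEC changes of -0.00 in confluent and -0.06 in sparse cells.

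Klf3, the CtBP-dependent repressor, lies on chromosome 5 (64803521 to 64832901) and was read by 3 probe sets that did not give the same calls. By 100011_at on chip A, its representative, the signals were 814 and 911 in VEC-positive confluent, 1164 and 1149 in VEC-null confluent, 884 and 684 in VEC-positive sparse, and 541 and 578 in VEC-null sparse cells. VEC-null confluent arrays were highest and VEC-null sparse arrays lowest, and the VEC-positive conditions overlapped. None of its changes passed, the nearest being 0.99 (SE 0.13) for confluent against sparse VEC-null cells.

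By 100010_at on chip A the signals were 291 and 278 in VEC-positive confluent, 879 and 618 in VEC-null confluent, 283 and 273 in VEC-positive sparse, and 279.6 and 298.5 in VEC-null sparse cells. The VEC-null confluent arrays stood alone, and the other conditions lay within a narrow band. The probe set passed as lower in VEC-positive confluent cells, at -1.24 (SE 0.16, limma adjusted p 0.00035) and as higher with confluence in VEC-null cells by 1.22 (SE 0.16, limma adjusted p 0.00018), with an interaction of -1.19 (SE 0.23, limma adjusted p 0.0041). Without the first VEC-null confluent copy, at 879, these became -0.999, 0.98 and -0.95 and none passed. Genes of chromosome 5 had a median VEC change of -0.31 in confluent cells (574 genes), and less that median the VEC difference was -0.93. On chip B, 113288_at gave 2196 and 2313.5 in VEC-positive confluent, 3253.5 and 3105 in VEC-null confluent, 2224 and 1584 in VEC-positive sparse, and 2005 and 1876 in VEC-null sparse cells. Again VEC-null confluent arrays were highest, but its largest change was 0.70, in VEC-null cells with confluence, and none passed.

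**Figure D2:**
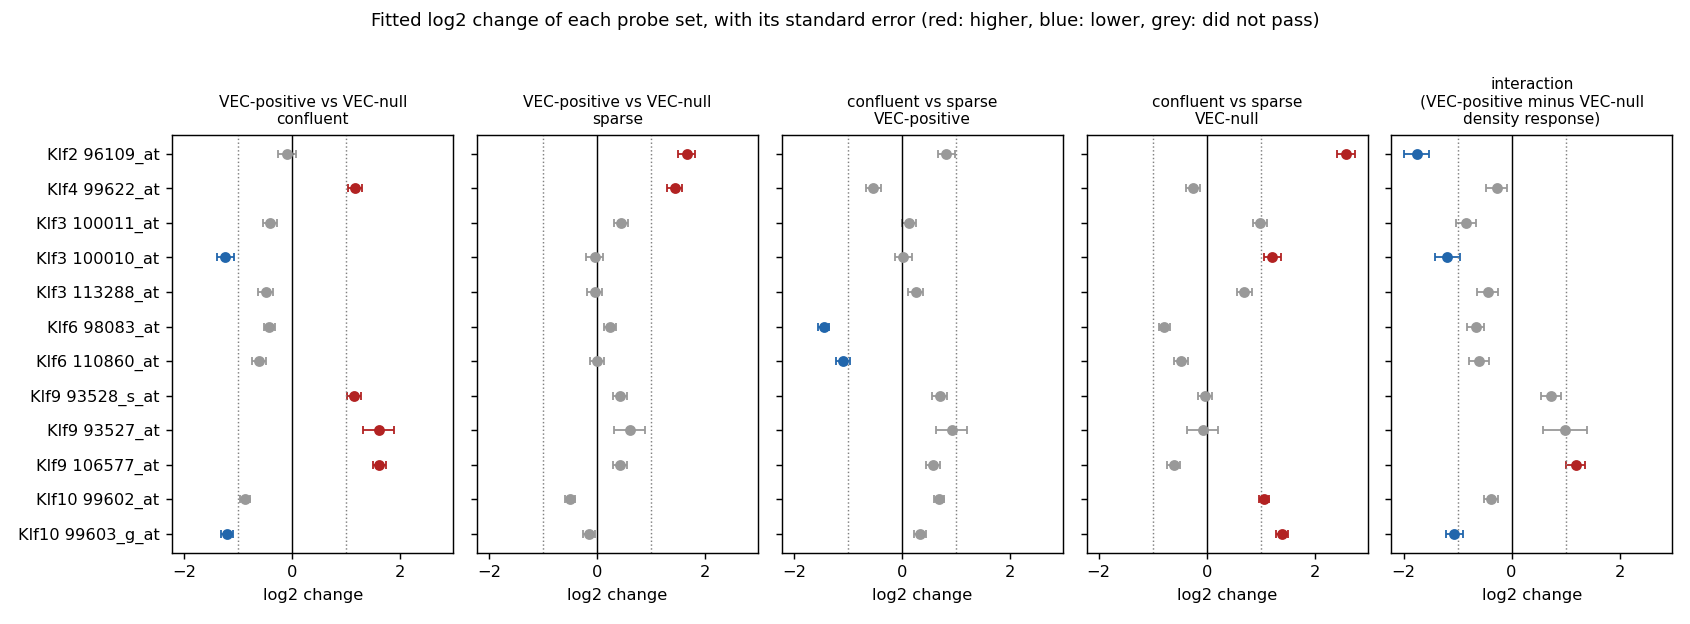
Fitted log2 change (horizontal axis, with its standard error) of each tested probe set for VEC at each density, for density in each line, and for the interaction, with dotted lines at -1 and 1. Red points passed as higher, blue as lower, and grey did not pass. Klf4 is red in both VEC panels at 1.16 and 1.43, the Klf9 probe sets in the confluent one, and Klf2 reaches 2.58 in the VEC-null density panel.

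Taking 1 representative probe set per gene, 2 of 6 genes (Klf4 and Klf9) were higher in VEC-positive confluent cells and 4 did not pass. In VEC-positive sparse cells 2 of 6 (Klf2 and Klf4) were higher. Of all tested genes, 4.54% were higher and 3.45% lower in confluent cells, and 5.8% higher and 4.31% lower in sparse cells. The median change of the 6 genes was -0.25 in confluent and 0.43 in sparse cells, beside -0.01 and -0.04 over all 8955 tested genes. With confluence, Klf6 was lower in VEC-positive cells, Klf2 and Klf10 were higher in VEC-null cells, and the medians were 0.41 and 0.48, beside 0.04 and -0.01 over all genes. Of all tested genes, 8.7% were higher and 7.2% lower with confluence in VEC-positive cells, and 9.22% higher and 7.84% lower in VEC-null cells. The 2 VEC comparisons share no arrays, but each shares arrays with the density comparisons, so the 4 sets of values are not independent.

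A coarser fit averaged the copies and set 1 additive term for VEC and 1 for density over the 4 cRNA samples, which leaves 1 residual degree of freedom, and it called few members. That residual holds the interaction of VEC and density, so its p values set each effect against the interaction and not against replicate cultures. Klf2 had an interaction of -1.76, which passed in the fit over arrays. In limma, 0 of the 12 probe sets passed for VEC, where 2.24% of all tested did (1.41% as higher), and 4 of the 12 had an unadjusted p below 0.05. Klf4 had a VEC effect of 1.30 (SE 0.30, limma adjusted p 0.069) and Klf9 106577_at 1.02 (SE 0.30, limma adjusted p 0.080). The Klf2 density effect of 1.70 (SE 0.40, limma adjusted p 0.026) was the 1 that passed, where 9.9% of all tested did (5.78% higher and 4.13% lower). Klf6 98083_at had a density effect of -1.12 (SE 0.33, limma adjusted p 0.069).

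The members followed different patterns over the 4 conditions. After each gene's 4 condition means were centred, the root mean square difference on the log2 scale was smallest between Klf10 and Klf3, at 0.40, and between Klf9 and Klf4, at 0.51. It was largest between Klf6 and Klf2, at 1.501. For 5 members, each with condition means that span at least 1 on the log2 scale, the most similar genes on the chips were named by the same measure over 4 conditions. Klf10 lay closest to Hes1, a Notch target and repressor, at 0.04, followed by Acy3 and Ppdpf. Klf4 lay closest to Cnih1, a cargo receptor of the secretory pathway, at 0.02, then to Psrc1 and Sprr3. Klf6 was closest to P4ha1, a collagen prolyl hydroxylase, at 0.02, then to Cnbp and Psmd8. Klf9 was closest to Dner, a Notch ligand of neurons, at 0.05, then to Helb and Rfx1. Dner and Rfx1 were dim and exceeded the level filter only in VEC-positive confluent cells, and Sprr3 only in VEC-positive sparse cells. The nearest genes to Klf2 were farther off, with Cpt1a, the carnitine acyltransferase of fatty acid oxidation, at 0.14, then Adam15 and Mtus1 at 0.14 and 0.15. Cpt1a gave 2876 and 2739 in VEC-positive confluent, 2852.5 and 2744 in VEC-null confluent, 1437 and 1367 in VEC-positive sparse, and 524 and 549.9 in VEC-null sparse cells, the same order as Klf2. With 4 conditions, many genes can share a pattern, and no relation follows from the likeness.

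Of 21 other KLF and SP family genes listed, 11 were on the chips with 26 probe sets, and 7 had a representative that passed the level filter, while Klf12, Klf15, Klf17 and Sp4 were dim. By representative, 0 of the 7 passed in either VEC comparison in limma (4 in confluent and 5 in sparse cells at an unadjusted p below 0.05). Klf11, the other TGF-beta-inducible family member, was highest in VEC-positive confluent cells, with 2371 and 2545 in VEC-positive confluent and 1360.3 and 1583 in VEC-null confluent cells, and 403 and 464.5 in VEC-positive sparse and 668 and 646.5 in VEC-null sparse cells. It was higher with confluence by 2.38 in VEC-positive and 1.10 in VEC-null cells, and the responses differed by 1.27. Klf5, a factor of proliferating and wounded vessel walls, ran the other way, at 136 and 114 in VEC-positive confluent against 590.4 and 634 in VEC-positive sparse cells, and at 156 and 132 in VEC-null confluent against 1009 and 965 in VEC-null sparse cells. Its change with confluence was -1.92 in VEC-positive and -2.42 in VEC-null cells, and both passed. Klf7 was higher with confluence in VEC-null cells by 1.18, 1.03 and 1.01 over its 3 tested probe sets, while none of the 3 passed in VEC-positive cells. All 3 passed as lower for the interaction, at -1.09, -1.16 and -1.25. Klf7 112898_at was lower in VEC-positive confluent than in VEC-null confluent cells, at -1.12. Sp3 passed for the interaction alone, at 1.06, and Klf1, Klf13 and Sp1 passed in none of these 5 comparisons.

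**Figure D3:**
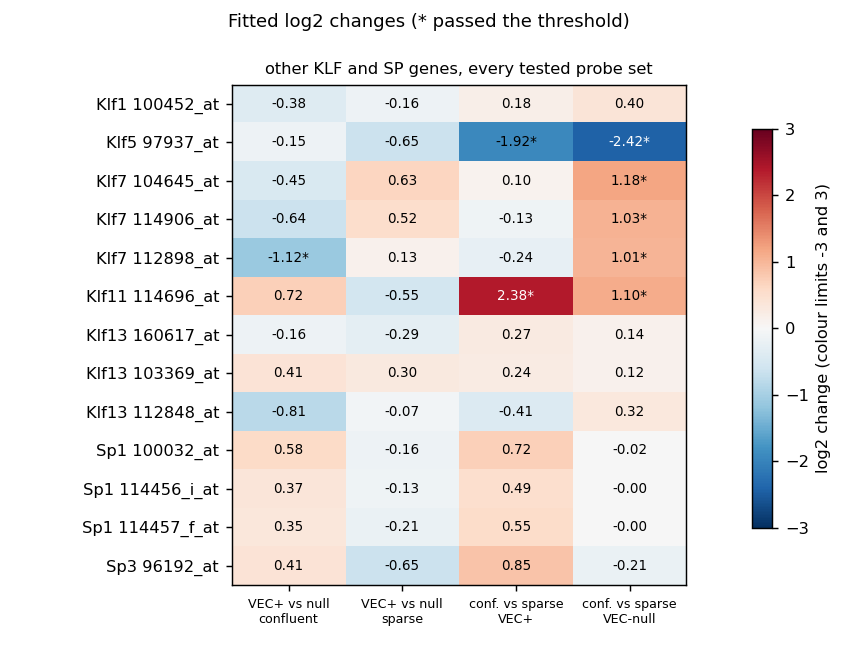
Fitted log2 changes of every tested probe set of the other KLF and SP genes (rows) in 4 comparisons (columns), with the colour scale limited to -3 and 3 and a star where the probe set passed. Klf11 at 2.38 and Klf5 at -1.92 and -2.42 hold the strongest density changes.

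The flow pathway that acts upstream of Klf2 and Klf4 was described by 17 listed regulators (MEKK3, MEK5, ERK5, the MEF2 factors, their class II deacetylases, the CCM complex, Piezo1 and the AMP kinase subunits), of which 16 were tested. Lists were counted by representative probe set, and of all 8955 tested genes 4.54% were higher and 3.45% lower in VEC-positive against VEC-null confluent cells, and 5.8% higher and 4.31% lower in sparse cells. With confluence 8.7% were higher and 7.2% lower in VEC-positive cells, and 9.22% higher and 7.84% lower in VEC-null cells, and for the interaction 6.59% were higher and 6.2% lower. In confluent cells 0 of 16 passed between the lines in limma (7 at an unadjusted p below 0.05), with a median of 0.21, though a second probe set of Prkaa2, an AMP kinase subunit, passed as higher at the threshold of 1. In sparse cells 2 were higher in VEC-positive cells, Piezo1, a mechanosensitive channel, by 1.97 and Heg1, the transmembrane partner of the CCM complex, by 1.34. Piezo1 gave 13082 and 14593 in VEC-positive sparse cells, against 3700.1 and 3298 in VEC-null sparse cells. Klf2 was higher in the same comparison, and the part of Piezo1 and Heg1 in it was not tested.

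With confluence, 4 of 16 were higher in VEC-positive cells, Mef2c by 2.19, Hdac5 by 2.05, Heg1 by 1.22 and Map3k3 (MEKK3) by 1.13, where the other tested probe sets of Map3k3 gave 0.73 and 0.95 and did not pass. In VEC-null cells 5 of 16 were higher, Mef2c by 2.56, Heg1 by 1.97, Hdac5 by 1.53, Mef2a by 1.24 and Piezo1 by 1.03, where the other tested probe sets of Mef2a gave 0.57 and 0.34 and did not pass. Mef2c, a MEF2 factor that activates Klf2, gave 485 and 562 in VEC-positive confluent cells, against 79.3 and 71.8 in VEC-positive sparse cells. In VEC-null cells it gave 678 and 717 when confluent, against 83.0 and 71.0 when sparse. Mef2c and Klf2 were both higher with confluence in VEC-null cells, while Klf4 had a change of -0.25. In VEC-positive cells Mef2c was higher by 2.19, where Klf2 had 0.82 and did not pass. Between the lines in sparse cells Mef2c had -0.02, where Klf2 was higher by 1.66. The part of Mef2c in the Klf2 values was not tested. Hdac5, which holds MEF2 factors inactive, was higher when confluent in both lines, as Mef2c was. None of the 16 passed as lower in these 4 comparisons by its representative.

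Genes known to be raised by KLF2 or KLF4 in endothelium passed in both directions between the lines. Of 20 listed, 15 were tested, and in confluent cells 1 was higher in VEC-positive cells (Aqp1, the water channel, by 1.81) and 3 were lower (Gja4, connexin 37, at -3.26, Cyp1b1 at -2.45 and Sema6a at -1.89, with 0.055 by another of its probe sets). Aqp1 exceeded the level filter only in VEC-positive confluent cells, and Gja4 and Sema6a only in VEC-null confluent cells, so 3 of these 4 calls, and their density and interaction calls below, come from genes tested through the condition in which they were high. In sparse cells 1 was higher (Timp3, a metalloprotease inhibitor, by 1.59) and 1 was lower (Cyp1b1 at -2.28), and the other tested probe sets of Ptgds, a prostaglandin synthase, passed as lower at -2.07 and -2.19 where its representative gave -0.71. The second of these Ptgds probe sets also passed as lower in confluent cells, at -1.70. The list medians were -0.08 and 0.13, beside -0.01 and -0.04 over all genes. Thbd, a textbook target of KLF2, was below the level filter. Nos3, also on the list, was tested and had -0.88 between the lines in confluent and 0.13 in sparse cells, which did not pass. With confluence Nos3 was higher in VEC-null cells by 1.40 and had 0.39 in VEC-positive cells, which did not pass. Its interaction passed as lower at -1.01. Gja4 gave 18.3 and 30.8 in VEC-positive confluent cells, against 674 and 648 in VEC-null confluent cells. Sparse cells of both lines were near the lower of these, at 18.2 and 14.4 in VEC-positive and 13.8 and 10.6 in VEC-null cells.

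With density, every call of this list by representative was higher in confluent cells. In VEC-positive cells 5 of 15 were higher when confluent, Tek (the angiopoietin receptor Tie2) by 2.85, Aqp1 by 1.77, Plvap by 1.46, Nfe2l2 by 1.45 and Slc9a3r2 by 1.27. In VEC-null cells 8 of 15 were higher, among them Gja4 by 3.52, Tek by 3.05, Sema6a by 2.51, Jam2 by 2.47, Plvap by 2.27 and Timp3 by 1.91. Sema6a did not pass in VEC-positive cells by its representative, at 0.51. Its other tested probe sets gave 2.80, 3.03 and -0.38 in VEC-positive cells, and 2.28, 2.75 and -0.16 in VEC-null cells. Those of Plvap gave 1.69 and -0.72 in VEC-positive cells, and 2.72 and -0.24 in VEC-null cells. For the interaction 1 of 15 was higher (Aqp1 by 1.57) and 5 were lower, among them Gja4 at -3.35, Jam2 at -1.83 and Timp3 at -1.61. The medians were 0.62 in VEC-positive and 1.38 in VEC-null cells, beside 0.04 and -0.01 over all genes. Timp3 had the Klf2 pattern in outline, at 6863 and 6078 in VEC-positive confluent, 6611.5 and 6503 in VEC-null confluent, 5391 and 5088 in VEC-positive sparse, and 1676 and 1737 in VEC-null sparse cells. The endothelial markers, 8 of 14 of which were higher with confluence in VEC-positive and 10 of 14 in VEC-null cells, moved with this list, and their part in it was not tested. Vwf, among the 8, exceeded the level filter in only 1 condition. Tek stands in both lists, as Kdr does among the lowered genes.

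Of 17 listed genes known to be lowered by KLF2 or KLF4, among them chemokines and leukocyte receptors, 12 were tested. By representative, 5 were lower, 0 higher and 7 did not pass in confluent cells, the chemokine Ccl2 at -2.22, tissue factor (F3) at -2.02, Il6 at -1.72, the leukocyte receptor Vcam1 at -1.02 and Ccl5 at -1.01. F3 exceeded the level filter only in VEC-null confluent cells. The other tested probe sets of Vcam1 gave -0.57 and -0.61 and did not pass, and that of Edn1, endothelin 1, passed as higher in VEC-positive cells at 1.49 where its representative gave 0.45. Cxcl12, at -0.43 by its representative, passed as lower at -1.28 by another probe set. In sparse cells 5 were lower, 0 higher and 7 did not pass, Ccl5 at -3.32, Vcam1 at -2.26, Cxcl12 at -1.88, Il6 at -1.63 and Ccl2 at -1.22. Here the other tested probe sets of Vcam1 gave -0.12 and -0.45 and did not pass, and those of Cxcl12 gave -0.82, -1.42 and -0.16, of which the second passed. The medians were -0.89 and -0.77, beside -0.01 and -0.04 over all genes. Ccl2 gave 1973 and 1844.5 in VEC-positive confluent against 8894 and 9223 in VEC-null confluent cells, and 5397 and 5135 in VEC-positive sparse against 12576 and 12088 in VEC-null sparse cells. All 4 VEC-positive arrays lay below all 4 VEC-null arrays, whereas for Klf4 they lay above. Il6 split the same way, at 50 and 44.5 in VEC-positive confluent against 272 and 267 in VEC-null confluent cells, and at 21.1 and 23.0 in VEC-positive sparse against 172 and 175 in VEC-null sparse cells.

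With density the list had no common direction. In VEC-positive cells 3 were higher when confluent (Kdr, the VEGF receptor 2, by 2.78, Icam1 by 1.96 and Ccl5 by 1.18) and 3 were lower (Ccl2 at -1.44, Angpt2 at -1.44 and Edn1 at -1.32). Angpt2 exceeded the level filter only in VEC-positive sparse cells. In VEC-null cells 4 were higher and 4 lower, with Kdr at 2.73 and Cxcl12 at -2.10 as the largest changes by representative. The medians were 0.03 in VEC-positive and 0.28 in VEC-null cells. Both lists name genes from knowledge of KLF2 and KLF4 in other endothelial cells, and whether either factor acted on them here was not tested.

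**Figure D4:**
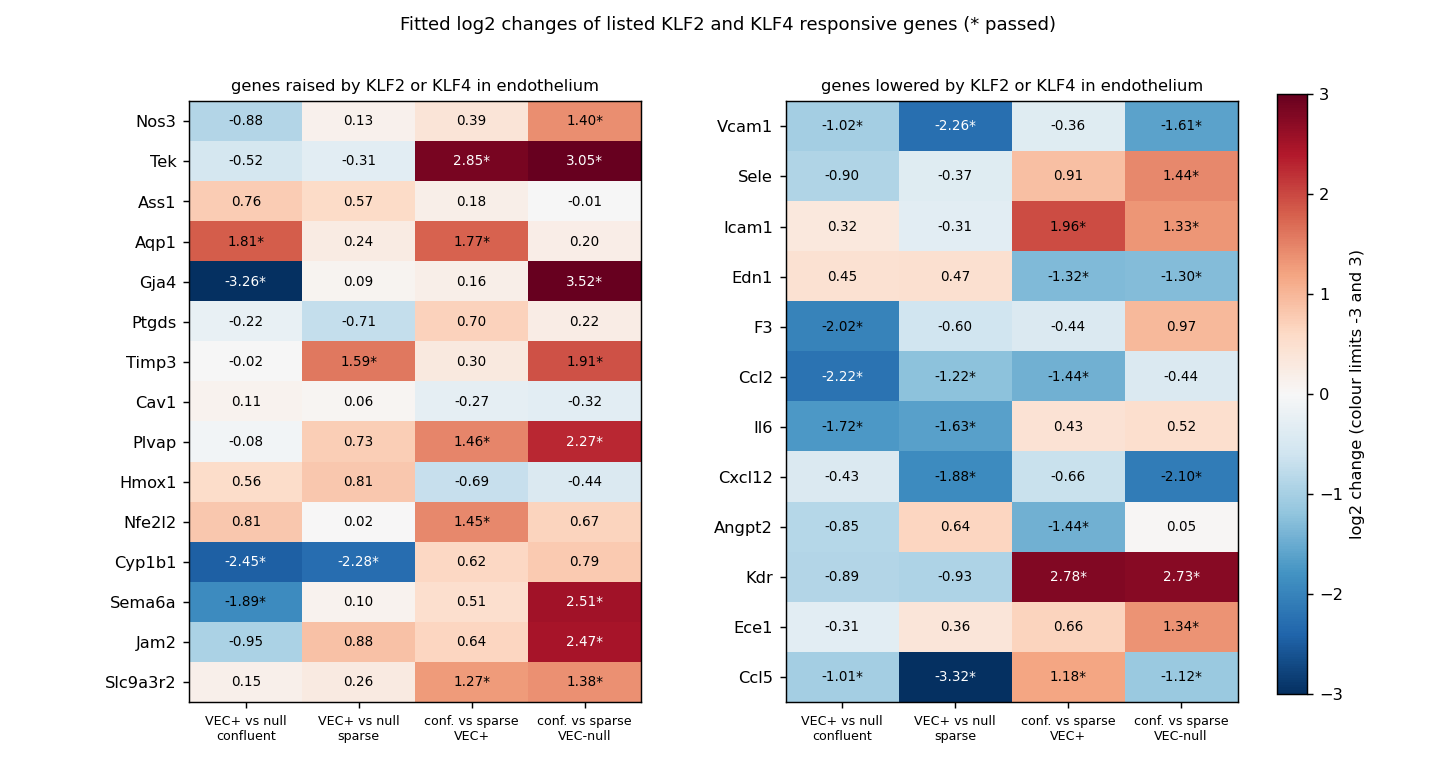
Fitted log2 changes of the tested genes known to be raised (left) and lowered (right) by KLF2 or KLF4 in endothelium, by representative probe set, in 4 comparisons (columns), with the colour scale limited to -3 and 3 and a star where the gene passed. The first 2 columns of the lowered genes hold 5 starred values each, all negative, and the density columns of the raised genes hold 5 and 8, all positive.

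Of 13 tested cofactors and ubiquitin ligases of the family, 0 passed in limma in either VEC comparison (2 in confluent and 7 in sparse cells at an unadjusted p below 0.05) or with confluence in VEC-positive cells (5 at an unadjusted p below 0.05). Crebbp, an acetyltransferase that KLFs recruit, was higher by 1.12 with confluence in VEC-null cells, where its other tested probe sets gave 1.22, which passed, and 0.54, 0.39 and -0.17, which did not. Probe sets other than the representative also passed for Ctbp2, lower in VEC-positive sparse cells at -1.06, and for Fbxw7, higher with confluence in VEC-null cells by 1.73. Ctbp1, the corepressor that Klf3 binds, had changes of -0.48 in confluent and -0.98 in sparse VEC-positive against VEC-null cells, which did not pass.

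Klf9 is known as a glucocorticoid-induced and Klf10 as a TGF-beta-induced gene, and other genes of both kinds were listed. Of 11 tested glucocorticoid-induced genes, 0 were higher and 3 lower in VEC-positive confluent cells, where Klf9 was higher: Mt1 at -1.33, Errfi1 at -1.27 and Mt2 at -1.06. The other 8 did not pass and went both ways, from -0.66 to 0.82. By another probe set Glul, glutamine synthetase, passed as higher there at 1.67, with an interaction of 1.58, where its representative gave 0.09, and by another Mt1 had -0.41 in confluent and -0.06 in sparse cells and did not pass. In sparse cells Per1 was higher by 1.04 and the same 3 genes, Mt2, Errfi1 and Mt1, were lower, at -2.17, -2.14 and -1.16. With confluence 1 was higher and 3 lower in VEC-positive cells, and 2 were higher and 3 lower in VEC-null cells. Of 10 tested TGF-beta early response genes, 1 was higher in VEC-positive confluent cells (Ccn2 by 1.98) and 4 were lower: Pmepa1 at -6.03 (with -1.77 by its other probe set, which passed), Bhlhe40 at -2.38, Tgif1 at -1.17 and Id1 at -1.07. Klf10 was lower there by 99603_g_at, while its representative 99602_at gave -0.87 and did not pass. Bhlhe40 gave 104 and 109 in VEC-positive confluent against 779.6 and 744 in VEC-null confluent cells. In sparse cells 1 was higher (Smad6 by 1.59, above the level filter only in VEC-positive sparse cells) and 1 lower (Pmepa1 at -4.69, with 0.17 by its other probe set). With confluence 1 was higher and 5 lower in VEC-positive cells, and 1 was higher and 1 lower in VEC-null cells. Klf10 itself had 0.69 by 99602_at and 0.33 by 99603_g_at in VEC-positive cells, which did not pass. In VEC-null cells it had 1.07 and 1.39, which passed.

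Among 15 tested immediate early genes, the class to which Klf6 belongs in wounded vessels, 5 were lower and 0 higher with confluence in VEC-positive cells: Ier3 at -3.12, Myc at -2.55, Fosl1 at -2.52, Atf3 at -1.74 and Dusp1 at -1.35. By its other tested probe sets Fosl2 was lower, at -1.78 and -1.54, while its representative had the opposite sign and did not pass. Atf3 had -0.81 by another probe set and did not pass, as in VEC-null cells with -0.58. In VEC-null cells 4 were lower (Fosl1 at -3.27, Myc at -2.35, Atf3 at -2.05 and Ier3 at -1.75) and Btg2 was higher by 1.54. Between the lines Btg2, an antiproliferative gene, was higher in VEC-positive cells by 1.5 when confluent and 2.06 when sparse, and Myc was lower, at -1.15 when confluent. The medians with confluence were -0.22 in VEC-positive and -0.07 in VEC-null cells.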

How the data were processed

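Each deposited value is the MAS5 signal of a probe set, an intensity on a linear scale, which the authors brought to a common level of 500 on every array, per the labels. MAS5 is also named in the submitters' processing notes, without a version. No detection calls were used here. Trimmed means were 500.1 to 500.3 on the 16 arrays, and a centring per gene that the series text names was not seen.

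Signals were tested as log2(signal + 50), so folds understate changes of dim genes. Probe sets were kept where the mean of at least 1 group exceeded the chip's median, 14301 in all. Linear models over 8 arrays per chip were fitted with limma 3.58.1 in R 4.3.3 (trend in the variance prior, 4 residual degrees of freedom), and tables were made with Python 3.11.15 and pandas 2.3.3. P values were adjusted by Benjamini-Hochberg over both chips; passing needed both an adjusted p under 0.05 and an absolute log2 change of 1 or more. The scripts were tested on simulated data. The number of arrays limits the precision.

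Symbols came from GEO's platform annotation, with 21414 probe sets of 1 symbol, 574 of several and 2845 of none; loci and promoters came from RefSeq, GRCm38.p6. A gene's representative was on chip A before chip B, then brightest. Named were every member probe set, every measured family gene, up to 6 passing genes per list and comparison, markers, and the 3 genes nearest each member. The members and lists were chosen with earlier results of these data known.

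Copies with the same number did not deviate together over conditions (correlations -0.089 to 0.078), so numbers name copies only. Alternatives were offsets of 200 and 10, no filter or the 75th percentile, quantile normalization, a prior without trend, a replicate block, leaving out each copy, another probe set, and subtracting the chromosome's median.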

Additional observations from a re-analysis of the deposited data

Results flagged for a closer look

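For 4 member probe sets the response to confluence differed between the lines by the test of the difference itself in limma. Klf2 96109_at responded less in VEC-positive than in VEC-null cells, at -1.76 on the log2 scale, as did Klf3 100010_at at -1.19 and Klf10 99603_g_at at -1.06. Klf9 106577_at responded more, at 1.19. For Klf3, Klf9 and Klf10, the other tested probe sets of the same gene had the same sign and did not pass. The Klf10 call was lost without the second VEC-null sparse copy (-0.978), without the second VEC-positive confluent copy (-0.942) and at an offset of 200 (-0.966), and that of Klf3 without the first VEC-null confluent copy (-0.95) and at that offset (-0.92), where Klf2 had -0.92 and did not pass either. Groups of 2 copies are too small to look for a single array that stands apart.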

How the results depend on the processing

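Over 16 settings, 926 of 950 member changes kept their side of the threshold, 18 no longer passed and 6 newly passed. Of changes that passed in either setting, 0 reversed in sign. Signs were not compared for changes that passed in neither, and some of these turned. Klf3 100010_at in sparse cells, for example, had -0.05, and 0.30 less the chromosome's median. An offset of 200, which shrinks changes of dim probe sets by construction, left 2 member calls of 6 for VEC in confluent cells, 1 of 2 in sparse cells, 2 of 4 for density in VEC-null cells, 1 of 4 for the interaction, and 0 of 1 for the additive density effect. Under it Klf2 had 0.84 in sparse cells and -0.92 for the interaction, Klf4 had 0.997 and Klf9 93528_s_at 0.90 for VEC in confluent cells, and Klf10 99602_at had 0.97 for density in VEC-null cells. The 75th percentile filter left 1 member call in sparse cells, since Klf2 was no longer tested by it, and gave 1 for the additive VEC effect; no filter gave 0 for the additive density effect, with more probe sets to adjust over. Leaving out a copy gave 5 to 6 member calls for VEC in confluent and 2 in sparse cells, 1 to 3 for density in VEC-positive and 3 to 5 in VEC-null cells, 3 to 5 for the interaction, 0 to 1 for the additive VEC effect and 1 to 2 for the additive density effect (2 without the second VEC-positive sparse copy); the additive VEC call was Klf4, without the second VEC-positive confluent copy or either VEC-positive sparse copy.

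Over all probe sets, the VEC count of 1131 in confluent cells became 590 at an offset of 200, 699 with the 75th percentile filter and 1094 to 1206 without 1 copy, and that of 1388 in sparse cells became 689, 920 and 1371 to 1526 under the same settings. The density count of 2194 in VEC-positive cells became 1305 at an offset of 200 and 2182 to 2315 without 1 copy, that of 2356 in VEC-null cells 1444 and 2333 to 2405, and the interaction count of 1745 became 1018 and 1630 to 1800. The additive VEC count of 320 became 203 and 213 at offsets of 200 and 10, 199 with quantile normalization, 183 without trend and 162 to 436 without 1 copy (162 without the second VEC-null sparse copy); the additive density count of 1416 became 911 at an offset of 200 and 1244 to 1563 without 1 copy. The cause was not tested. A replicate block left the member counts at 6 and 2 for VEC in confluent and sparse cells, 2 and 4 for density in VEC-positive and VEC-null cells and 4 for the interaction, and changed no member call; pairing was not borne out, and the block was not run on the additive fit. By another probe set, signs turned for Fosl2 (-1.78 for density in VEC-positive cells, -1.77 for the interaction), Pmepa1 (0.17 in sparse cells), Sema6a (0.055 in confluent cells, 0.52 for the interaction) and Vcam1 (-0.45 for the interaction).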
